A study of Mus musculus with 21 samples.

Results

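Gene expression in primary mouse brain microglia was compared between adult mice labelled 5XFAD Trem1+/- and adult wild-type mice. The comparison used 6 of the 21 libraries of the study, 3 from each group, and 17025 of the 54532 listed genes, whose normalized counts averaged 10 or more over 9 libraries. The 6 libraries were taken by their genotype and age labels, and 3 libraries from adult 5XFAD mice with no Trem1 genotype given were set beside them. The remaining 12 libraries, from young and aged mice, stood in a separately normalized table and were not used. The study asked how loss of Trem1 alters microglial expression in aging and in the 5XFAD model of Alzheimer's disease.

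All 9 libraries were labelled adult, with no age in months, and the labels gave no strain, sex or number of animals and no method of microglial isolation. 5XFAD mice carry human transgenes, APP among them, with familial Alzheimer mutations, driven in neurons by elements of the mouse Thy1 promoter, and develop amyloid plaques early. The heterozygous mice carried these transgenes together with 1 disrupted copy of Trem1, so that they differed from wild type in the transgenes as well as in Trem1, and the contributions of each to this comparison cannot be told apart. Whether each library came from its own mouse is not stated, so the p-values measure only the spread between these libraries. Below, "heterozygous" stands for the libraries labelled 5XFAD Trem1+/-.

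Microglia are the resident macrophages of the brain. Around amyloid plaques they are known to enter a disease-associated state in which genes for lipid handling, lysosomal proteolysis and secreted factors rise, in an early step that does not need the lipid-sensing receptor TREM2 and a later step that does. TREM1, a related receptor of myeloid cells, signals through the same adaptor, DAP12 (encoded by Tyrobp), and is known to amplify inflammatory responses.

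The 6 libraries held 12064904 to 18698707 reads on genes, and 3 reads corresponded to 2.26 to 3.52 normalized counts in them. All 10 defining microglial markers were present in every library, with summed levels of 390535 to 436326 normalized counts in wild type and 375511 to 414271 in the heterozygous libraries. Ddx3y, a Y-linked gene, was at 1372 to 1855 normalized counts in all 6, and Xist, which is expressed from the inactive X chromosome, was at 0 to 31.9. On the first principal component, which held 25.8% of the variance, the wild-type libraries lay at -57.5, -145 and -34.0 and the 5XFAD and heterozygous libraries between 16.5 and 63.7. Wild-type replicate 2 lay farthest out on this component. On the next, which held 18.9% of the variance, 5XFAD replicate 2 lay at -153 and the other 8 libraries between 3.82 and 40.3. Most calls did not hold with each wild-type and heterozygous library left out, and for genes described singly the libraries concerned are given below.

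Trem1 (chromosome 17, 48232768 to 48246924, plus strand, GRCm38) did not separate the groups. It was at 62.7, 0 and 30.2 normalized counts in wild type, at 13.7, 32.0 and 36.8 in 5XFAD and at 25.1, 18.1 and 38.3 in the heterozygous libraries. The heterozygous values lay inside the wild-type range. The log2 difference, heterozygous minus wild type, was 1.10 ± 1.23 (SE, adjusted p = 0.719, 95% interval -1.49 to 3.69), and it was -0.72 without wild-type replicate 2, which had no Trem1 read. The disrupted part of Trem1 is not given, and counts per gene cannot show it. Every direction below therefore rests on the genotype labels.

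Across all tested genes, 473 differed between heterozygous and wild-type libraries at an adjusted p under 0.05, which is 2.78% of those tested. Of these, 347 (2.04%) were higher and 126 (0.74%) lower in the heterozygous libraries, and the groups did not overlap for 470 of the 473, while they did not overlap for 25.5% of all tested genes. At an unadjusted p under 0.05 there were 2707 genes (15.9%). The median log2 difference over all tested genes was 0.02. Counts of called list members below stand against these shares of 2.04% higher and 0.74% lower. Of the 473 calls, 94 held with each of the 6 wild-type and heterozygous libraries left out in turn, 84 of them higher and 10 lower. The 5XFAD libraries, which share the fit, were not left out for this comparison. edgeR's quasi-likelihood test on the recovered reads called 355 of the same genes and DESeq2 472.

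**Figure D1:**
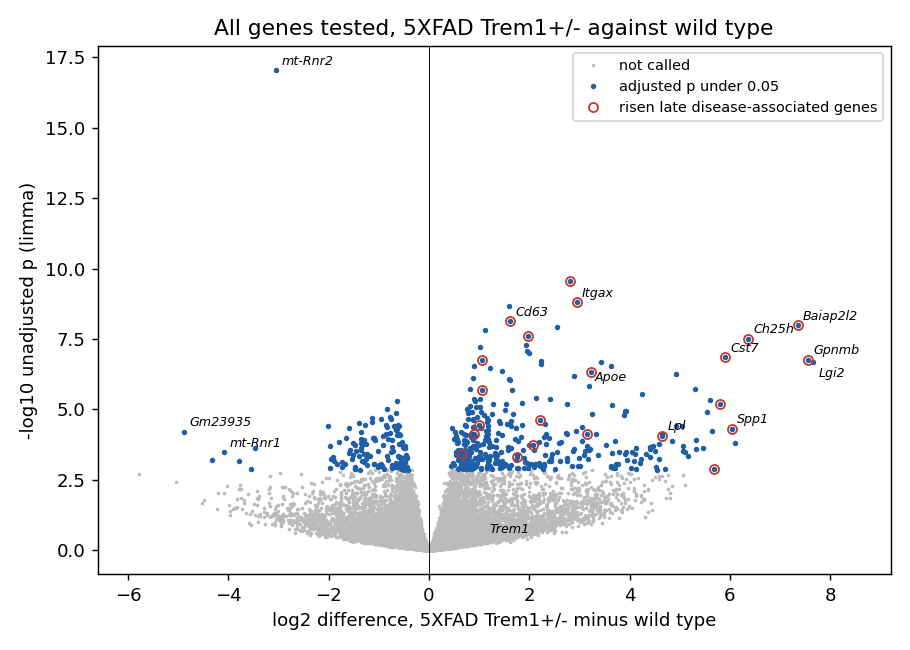
Each point is a tested gene, with its log2 difference (heterozygous minus wild type) on the horizontal axis and -log10 of the unadjusted limma p on the vertical axis. Blue points are the 473 called genes, red circles the 22 late disease-associated genes that rose, which lie on the right, while mt-Rnr2 lies highest on the left and Trem1 among the uncalled genes.

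Most late disease-associated genes rose. Of 31 members, all tested, 22 rose and 0 fell, with a median log2 difference of 2.07. For 28 of the 31 every heterozygous library was above every wild-type library, which held for 12.9% of all tested genes, while 12.6% lay below in the same way. Gpnmb, a transmembrane glycoprotein of lipid-laden macrophages (chromosome 6, 49036546 to 49070929), was at 0, 0 and 12.8 normalized counts in wild type and at 462, 409 and 487 in the heterozygous libraries. The rise was 7.56 ± 0.79 on the log2 scale (adjusted p = 1.8e-04). Baiap2l2, an adaptor of membrane curvature and actin, had no read in any wild-type library and 86.8, 190 and 257 normalized counts in the heterozygous ones. It was at least 58.9-fold higher, against a mean floor of 3 reads per wild-type library (adjusted p = 2.9e-05).

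Other secreted and lipid-linked members of the late group also rose steeply. Ch25h, which makes 25-hydroxycholesterol, was at 5.50, 0 and 3.77 normalized counts in wild type against 159, 319 and 338, a rise of 6.36 ± 0.70 (adjusted p = 5.2e-05). Spp1, which encodes the secreted phosphoprotein osteopontin, was at 25.3, 2.34 and 9.80 against 409, 686 and 953, a rise of 6.04 ± 0.82 (adjusted p = 0.00733). Cst7, an inhibitor of lysosomal cysteine proteases, was at 70.4, 36.3 and 53.5 against 1949, 3321 and 4741, a rise of 5.90 ± 0.41 (adjusted p = 1.6e-04). For each of these genes the lowest heterozygous library stood far above the highest wild-type library. Dkk2, a secreted modulator of Wnt signalling, rose by 5.80 ± 0.94 (adjusted p = 0.00224). Lpl, the lipase that releases fatty acids from lipoproteins, was at 89.1, 42.2 and 233 in wild type and at 1825, 2730 and 2872 in the heterozygous libraries. It rose by 4.65 ± 0.58 (adjusted p = 0.01), and the call was lost without heterozygous replicate 3 (adjusted p = 0.0552). Igf1, a growth factor, was at 0, 32.8 and 12.1 against 200, 567 and 528, a rise of 5.69 ± 1.16 (adjusted p = 0.0484). The Igf1 call was lost on leaving out any of the heterozygous libraries or without wild-type replicate 3, with an adjusted p of up to 0.163.

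Several surface receptors of the late group rose. Itgax, the integrin CD11c (chromosome 7, 128129547 to 128150657), was at 136, 168 and 198 normalized counts in wild type and at 762, 1542 and 1777 in the heterozygous libraries, a rise of 2.94 ± 0.26 (adjusted p = 8.9e-06). Clec7a, the beta-glucan receptor dectin-1, was at 338, 178 and 280 against 1860, 1705 and 1886, a rise of 2.82 ± 0.22 (adjusted p = 2.3e-06). Axl, a receptor kinase for cells marked by phosphatidylserine, was at 325, 248 and 559 against 2951, 3363 and 3824, a rise of 3.24 ± 0.29 (adjusted p = 3.1e-04). None of these receptors overlapped between the groups, and neither did 470 of the 473 called genes. Trem2 itself was at 4211, 4851 and 7109 in wild type and at 5792, 7834 and 8071 in the heterozygous libraries. These ranges overlapped, and its log2 difference of 0.44 ± 0.19 did not pass (adjusted p = 0.281).

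Chemokine, growth factor and lysosomal members rose as well. Ccl3 and Ccl4, chemokines that attract monocytes and other leukocytes, rose by 3.15 ± 0.50 and 2.07 ± 0.44, and Csf1, the ligand of the microglial survival receptor CSF1R, rose by 1.98 ± 0.22 (adjusted p = 4.8e-05). Csf1 was at 262, 432 and 348 normalized counts in wild type and at 1038, 1447 and 1613 in the heterozygous libraries. The tetraspanin gene Cd63 rose by 1.62 ± 0.16 (adjusted p = 2.5e-05), and Hif1a, a transcription factor of the hypoxia response, by 1.06 ± 0.13. Ccl6, Ank, Ctsl, Gusb, Ctsz and Cadm1 also rose, by 0.66 (Cadm1) to 2.20 (Ank). The 9 late members that did not pass, Fabp5, Cox6a2, Lgals3, Cd52, Cd68, Cd9, Timp2, Trem2 and Lilrb4a, all had values above 0, from 0.23 for Lilrb4a to 4.77 for Fabp5. Of the 22 calls, 16 held with each library left out. Igf1, Lpl, Ccl4, Ccl6, Ctsz and Cadm1 did not: Ctsz was lost without wild-type replicate 2 (adjusted p = 0.0616). Ccl4 and Ccl6 were lost without heterozygous replicate 2 or 3 or wild-type replicate 1 or 2 (adjusted p up to 0.101 and 0.113). Cadm1 was lost without heterozygous replicate 2 or 3 or wild-type replicate 1 or 3 (adjusted p up to 0.131).

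**Figure D2:**
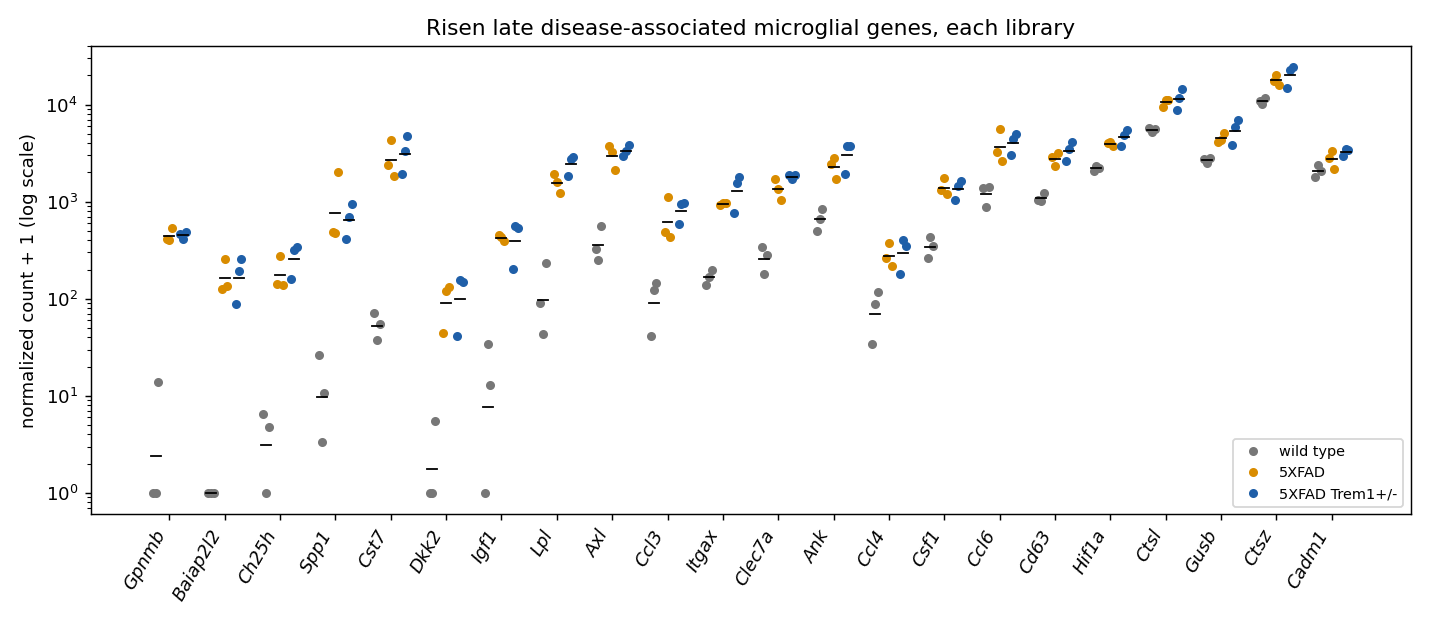
Normalized counts plus 1, on a log axis, of the 22 late disease-associated genes that rose, with a point per library and a bar at the mean of the log values of each group. Gpnmb, Baiap2l2 and Dkk2 lie at 1, which is a count of 0, in at least 2 wild-type libraries, and every heterozygous library lies above every wild-type library.

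The promoters of 2 of these genes are shown because they hold a match to GAGGAAG, the core of the sites bound by PU.1, the lineage factor of macrophages and microglia. The 250 bases before the start of the RefSeq gene (GRCm38.p6) are given on the gene's strand for Spp1 (chr5:104434861-104435110, plus strand) and Axl (chr7:25788734-25788983, minus strand), with the match on either strand in capitals.
Spp1: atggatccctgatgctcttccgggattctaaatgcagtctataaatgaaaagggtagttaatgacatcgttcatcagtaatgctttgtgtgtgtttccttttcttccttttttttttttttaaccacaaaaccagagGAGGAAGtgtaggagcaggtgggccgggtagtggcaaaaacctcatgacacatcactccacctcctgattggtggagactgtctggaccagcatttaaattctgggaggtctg
Axl: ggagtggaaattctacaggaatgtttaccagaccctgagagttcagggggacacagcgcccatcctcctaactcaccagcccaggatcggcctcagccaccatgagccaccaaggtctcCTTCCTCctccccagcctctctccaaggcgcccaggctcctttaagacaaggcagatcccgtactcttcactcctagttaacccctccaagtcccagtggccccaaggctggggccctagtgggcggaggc
The match began 113 bases before the start of Spp1 and 131 bases before that of Axl. Among the 18 risen late genes with a promoter in the RefSeq table, 4 (22.2%) held GAGGAAG on either strand, against 1221 of 11082 promoters of tested genes (11%). TGANTCA, the AP-1 motif, was in 2 of the 18 (11.1%) against 4.29% of all, and CACGTG, the E-box of MITF and TFE factors, in 2 (11.1%) against 8.29%. A match describes the letters only and is not evidence of binding.

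The early disease-associated genes rose as well. Of 7 members 5 rose and 0 fell, with a median log2 difference of 1.02, and all 5 calls held with each library left out. Apoe, the main apolipoprotein of the brain (chromosome 7, 19696109 to 19699188), was at 10390, 6480 and 10794 normalized counts in wild type and at 63718, 91758 and 93768 in the heterozygous libraries, a rise of 3.19 ± 0.24 (adjusted p = 7.9e-04). The lowest heterozygous library was thus several times the highest wild-type library. Fth1, the ferritin heavy chain, rose by 1.21 ± 0.14 (adjusted p = 2.4e-04) and Ctsb, a lysosomal cysteine protease, by 0.93 ± 0.14 (adjusted p = 0.00267). B2m, the light chain of class I histocompatibility molecules, rose by 0.91 ± 0.14 (adjusted p = 0.00198). Ctsd and Lyz2, at 0.85 (adjusted p = 0.0517) and 1.40 (adjusted p = 0.46), did not pass.

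Tyrobp, the adaptor shared by TREM1 and TREM2, was at 2510, 2130 and 2745 normalized counts in wild type and at 4100, 5326 and 5565 in the heterozygous libraries, a rise of 1.02 ± 0.16 (adjusted p = 0.00267). It was the only called gene of 20 in the list of TREM receptors and DAP12 signalling, whose median was -0.07. The kinase Syk was at -0.36 (adjusted p = 0.095) and the lipid phosphatase Inpp5d at -0.30 (adjusted p = 0.092). Plcg2, a phospholipase downstream of TREM2, was at -0.12, and the other TREM-like receptors Trem3, Treml1, Treml2 and Treml4 did not pass either.

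Of 25 genes of homeostatic microglia 2 rose and 0 fell, with a median log2 difference of -0.21 and 20 of the 25 below 0. For 11 of the 25 every heterozygous library was below every wild-type library, which held for 12.6% of all tested genes. The purinergic receptor P2ry12 was at 47046, 52544 and 48318 normalized counts in wild type and at 43765, 40911 and 31274 in the heterozygous libraries. All heterozygous values lay below the wild-type ones, but the log2 difference of -0.36 ± 0.21 did not pass (adjusted p = 0.437). Cx3cr1, the fractalkine receptor, was at -0.21 ± 0.08 (adjusted p = 0.212), Tmem119 at -0.17 ± 0.12 (adjusted p = 0.532) and Sall1, a transcription factor of microglial identity, at -0.37 ± 0.13 (adjusted p = 0.166). The members that rose were Fcrls, an Fc receptor-like scavenger molecule, by 0.78 ± 0.13 (adjusted p = 0.00361), and Olfml3, a secreted glycoprotein, by 0.47 ± 0.09 (adjusted p = 0.00724). The Olfml3 call was lost without heterozygous replicate 2 or wild-type replicate 2 (adjusted p up to 0.0549). In bulk libraries a lower number of cells of a type and less RNA per cell cannot be told apart.

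Of 33 tested lysosomal genes 11 rose (33.3%) and 0 fell, with a median of 0.46 and 31 above 0. Over all tested genes 2.04% rose and 0.74% fell. Beside Cst7, Cd63, Ctsb, Ctsl, Ctsz and Gusb, they were Glb1, Npc2, Hexa, Ctss and Lamp1. Ctss, a protease of antigen processing, was at 90077, 88520 and 101987 normalized counts in wild type and at 111084, 138655 and 152197 in the heterozygous libraries, a rise of 0.51 ± 0.10 (adjusted p = 0.00878). These groups did not overlap, yet the call was lost without heterozygous replicate 3 or wild-type replicate 2 (adjusted p up to 0.0674). Of the 11 calls, 5 held with each library left out: Cst7, Cd63, Ctsl, Gusb and Ctsb. These 5 are also in the early or late disease-associated lists. Subunits of the acidifying proton pump did not pass, with Atp6v1a at 0.82 (adjusted p = 0.065) and Tcirg1 at -0.36 (adjusted p = 0.1).

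Of 18 tested lipid-handling genes, 6 rose and 0 fell, with a median of 0.80. Besides Ch25h, Lpl and Apoe these were Fabp3, Scd2 and Npc2. Scd2, a fatty acid desaturase, was at 1939, 1901 and 1889 normalized counts in wild type and at 3504, 3490 and 3650 in the heterozygous libraries, a rise of 0.89 ± 0.17 (adjusted p = 0.00692). Fabp3, a fatty acid carrier, rose by 2.22 ± 0.57 (adjusted p = 0.042), a call lost on leaving out any of the 6 libraries (adjusted p up to 0.284). Npc2, which moves cholesterol out of lysosomes, rose by 0.71 ± 0.13, a call lost without heterozygous replicate 3 (adjusted p = 0.0627). The cholesterol exporters Abca1 and Abcg1 were at -0.21 (adjusted p = 0.28) and 0.24 (adjusted p = 0.4). In cholesterol synthesis and uptake 2 of 20 rose, with a median of 0.75 and 17 of 20 above 0. Among them Msmo1, a sterol oxidase, rose by 0.75 ± 0.20 (adjusted p = 0.0478). The Msmo1 call was lost on leaving out any of the 6 libraries (adjusted p up to 0.173).

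Type I interferon genes were mostly above 0, although few passed. Of 33 tested members 4 rose, 0 fell, 32 lay above 0, and the median was 1.16. Ifit3, an RNA-binding antiviral protein, was at 66.0, 72.6 and 118 normalized counts in wild type and at 305, 248 and 202 in the heterozygous libraries, a rise of 1.57 ± 0.34 (adjusted p = 0.0172). Bst2, which tethers enveloped virions, was at 138, 109 and 136 against 227, 292 and 387, a rise of 1.21 ± 0.31 (adjusted p = 0.0436). Ifi207, of the family of cytosolic DNA sensors, rose by 1.59 ± 0.42 (adjusted p = 0.0466) and Oasl2, related to the oligoadenylate synthetases, by 1.42 ± 0.37 (adjusted p = 0.0466). Wild-type and heterozygous values did not overlap for these genes, which held for 470 of the 473 called genes. None of the 4 calls held with each library left out: Ifit3 was lost on leaving out any heterozygous library or wild-type replicate 1 or 2 (adjusted p up to 0.0757). Ifi207 and Oasl2 were lost on leaving out any heterozygous library or wild-type replicate 2 or 3 (adjusted p up to 0.21 and 0.199), and Bst2 on leaving out any library but heterozygous replicate 1 (adjusted p up to 0.3).

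The promoters of 3 of these 4 genes hold the interferon response element, searched for as GAAA, any 2 bases and GAAA on either strand, and are shown for that reason. The 250 bases before the RefSeq start (GRCm38.p6) are given on the gene's strand for Ifit3 (chr19:34583279-34583528, plus strand), Bst2 (chr8:71537473-71537722, minus strand) and Ifi207 (chr1:173741810-173742059, minus strand), with matches in capitals.
Ifit3: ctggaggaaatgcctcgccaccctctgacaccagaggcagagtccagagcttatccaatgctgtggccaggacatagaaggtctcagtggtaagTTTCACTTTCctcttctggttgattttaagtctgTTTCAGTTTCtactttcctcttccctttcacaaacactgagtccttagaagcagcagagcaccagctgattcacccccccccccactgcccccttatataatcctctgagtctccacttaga
Bst2: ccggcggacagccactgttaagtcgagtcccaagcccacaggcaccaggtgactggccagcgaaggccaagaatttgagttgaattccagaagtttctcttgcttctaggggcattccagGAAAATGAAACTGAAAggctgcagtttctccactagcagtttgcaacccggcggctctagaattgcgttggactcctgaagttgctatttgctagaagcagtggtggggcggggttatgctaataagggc
Ifi207: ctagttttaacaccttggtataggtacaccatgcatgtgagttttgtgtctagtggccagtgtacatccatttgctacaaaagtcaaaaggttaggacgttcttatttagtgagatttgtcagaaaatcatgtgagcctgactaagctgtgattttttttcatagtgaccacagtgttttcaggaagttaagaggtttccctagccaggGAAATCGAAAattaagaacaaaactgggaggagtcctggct
Ifit3 held 2 matches, beginning 156 and 122 bases before the start, and Bst2 held 2 that overlap, at 130 and 124 bases. Ifi207 held 1 match at 41 bases. Among the 24 interferon list genes with a promoter in the RefSeq table, 14 (58.3%) held the element, against 303 of 11082 promoters of tested genes (2.73%). Since the list is of known interferon targets, that share describes the list and not its change here. Of the 18 risen late disease-associated genes with a promoter, 1 (5.56%) held it.

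Class I antigen presentation showed 6 of 17 members risen, 0 fallen and a median of 0.64. H2-K1, a classical class I heavy chain, was at 2032, 1778 and 2494 normalized counts in wild type and at 5543, 4160 and 4433 in the heterozygous libraries, a rise of 1.17 ± 0.20 (adjusted p = 0.00957). H2-D1, the other classical chain, was at 4200, 2223 and 4375 against 9803, 8356 and 9664, a rise of 1.43 ± 0.29 (adjusted p = 0.0456). H2-Q6 rose by 2.64 ± 0.54, and the proteasome activators Psme1 and Psme2 by 0.63 ± 0.15 and 1.64 ± 0.41. Only B2m of the 6 kept its call with each library left out. H2-K1 was lost without wild-type replicate 2 (adjusted p = 0.0571), H2-D1 on leaving out any heterozygous library or wild-type replicate 1 (adjusted p up to 0.209). H2-Q6 was lost without heterozygous replicate 1 or wild-type replicate 1 or 2 (adjusted p up to 0.0582). Psme2 was lost without heterozygous replicate 1 or 3 or wild-type replicate 1 or 2 and Psme1 without replicate 2 or 3 of either group (adjusted p up to 0.229 and 0.192). Class I genes share long stretches of sequence, and how the authors' counting divided reads among them is not given in the sources used here.

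No class II or co-stimulatory gene passed, 0 of 13, and the median was 0.45. Cd74, the class II invariant chain, was at 801, 518 and 908 normalized counts in wild type and at 7801, 2870 and 1637 in the heterozygous libraries. All heterozygous libraries were above wild type, but they spread widely, and the log2 difference was 2.20 ± 0.64 (adjusted p = 0.161). H2-Ab1, a class II beta chain, was at 1.92 ± 0.61 (adjusted p = 0.186).

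Among complement components and Fc receptors 3 of 19 rose, with a median of 0.36. Beside Itgax, they were C4b, a central complement component, by 2.96 ± 0.63 (adjusted p = 0.0425), and C3ar1, the receptor of the C3a fragment, by 0.60 ± 0.14 (adjusted p = 0.0264). C4b lost its call without heterozygous replicate 1 or 3 or wild-type replicate 1 or 2 (adjusted p up to 0.108), and C3ar1 on leaving out any library but heterozygous replicate 1 (adjusted p up to 0.185). C1qa, C1qb and C1qc, which start the classical pathway, were at 0.32 to 0.42 and did not pass. Of 17 uptake receptors only Axl rose (5.88%, against 2.04% of all tested genes), and it is also in the late list. Of 24 cytokines and chemokines, 5 rose, namely Igf1, Ccl3, Ccl4, Csf1 and Ccl6, with a list median of 0.85. These 5 are also members of the late disease-associated list counted above. The inflammatory cytokines Il1b and Tnf were at 0.33 (adjusted p = 0.8) and 0.66 (adjusted p = 0.6). In the list of NF-kB feedback and pattern receptors, 1 of 22 rose (4.5%, against 2.04% of all tested genes) and the median was -0.02. It was Tlr2, a receptor for bacterial lipoproteins, by 0.72 ± 0.16 (adjusted p = 0.016), lost without heterozygous replicate 2 or 3 or wild-type replicate 2 (adjusted p up to 0.103).

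Of 22 microglial transcription factors and TGF-beta pathway genes 1 rose (4.5%, against 2.04% of all tested genes), with a median of -0.03. Bhlhe40, a repressor active in disease-associated and lipid-loaded macrophages, was at 30.8, 30.5 and 12.8 normalized counts in wild type and at 168, 374 and 413 in the heterozygous libraries, a rise of 3.63 ± 0.47 (adjusted p = 2.2e-04). The groups did not overlap for it, which held for 470 of the 473 called genes. The lineage factors Spi1 and Irf8 were at 0.16 and 0.03 and did not pass. In the list of microglial Alzheimer risk genes, which also holds the microglial lectin Siglech, 2 of 24 rose (8.33%), with a median of -0.09. They were Apoe and Ctsb, both also in the early disease-associated list.

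**Figure D3:**
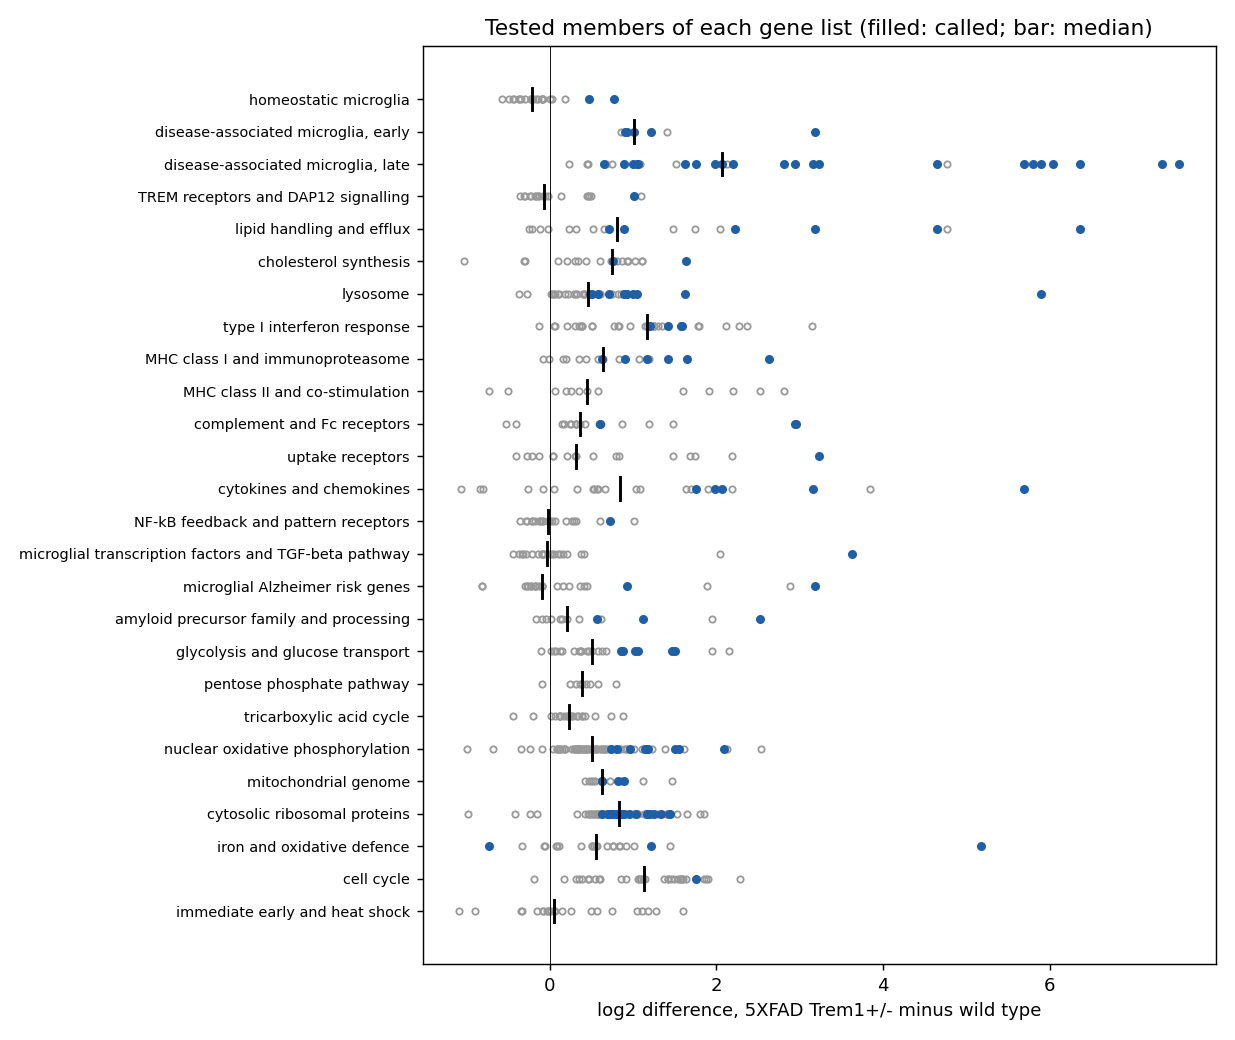
Each circle is a tested member of a gene list, placed by its log2 difference, heterozygous minus wild type, with filled circles for called genes and a bar at the list's median. The early and late disease-associated lists have medians of 1.02 and 2.07, while the homeostatic and TREM lists lie near 0.

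Genes of the amyloid precursor family rose. App (chromosome 16, 84949685 to 85173766) was at 6144, 6570 and 5866 normalized counts in wild type, at 8485, 6875 and 8135 in 5XFAD and at 9665, 7908 and 10095 in the heterozygous libraries. The rise over wild type was 0.57 ± 0.12 (adjusted p = 0.0117) in the heterozygous libraries and the difference 0.33 ± 0.12 (adjusted p = 0.17) in 5XFAD. The heterozygous call was lost without heterozygous replicate 3 (adjusted p = 0.0931). Aplp2, its paralog, was at 2632, 2102 and 2368 against 5384, 4890 and 5105, a rise of 1.12 ± 0.12 (adjusted p = 3.3e-05) that held with each library left out. Aplp1, the neuronal paralog, rose by 2.52 ± 0.56 (adjusted p = 0.0476), a call lost without heterozygous replicate 3 or any wild-type library (adjusted p up to 0.176). In all 3 of 13 tested members of this list rose, with a median of 0.21. The table lists no separate feature for the human transgenes, and the part of their reads in the App and Thy1 values was not tested.

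Genes of glucose breakdown rose in part: 7 of 25 rose, 0 fell, the median was 0.51, and 6 of the 7 held with each library left out. Pkm, pyruvate kinase, was at 3963, 2990 and 3264 normalized counts in wild type and at 6272, 6928 and 7511 in the heterozygous libraries, a rise of 1.02 ± 0.12 (adjusted p = 8.7e-05). Tpi1, which interconverts the triose phosphates, rose by 1.46 ± 0.19 (adjusted p = 3.0e-04) and Pgk1, which makes ATP in the pathway, by 1.51 ± 0.24 (adjusted p = 0.00308). Eno1, an enolase, and Ldha, a lactate dehydrogenase subunit, rose by 0.88 ± 0.16 and 0.87 ± 0.16, and Aldoa, an aldolase, by 0.85 ± 0.14. Gapdh and Pgam1, other enzymes of the pathway, were at 0.14 (adjusted p = 0.878) and 0.67 (adjusted p = 0.087) and did not pass. Ldha lost its call without heterozygous replicate 3 (adjusted p = 0.0512). The hexokinases Hk1, Hk2 and Hk3 were at -0.10 to 0.29 and did not pass. No gene passed among 9 of the pentose phosphate pathway (median 0.39) or 23 of the tricarboxylic acid cycle (median 0.23), where Idh3a was nearest at 0.88 ± 0.23 (adjusted p = 0.0503).

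Of 76 tested ribosomal protein genes 27 rose and 0 fell, with a median of 0.83, and Rps26 and Rpl29 kept the call with each library left out. Rpl29 was at 1095, 819 and 1160 normalized counts in wild type and at 2116, 2226 and 1912 in the heterozygous libraries, a rise of 1.04 ± 0.18 (adjusted p = 0.00341). Of 74 nuclear genes of oxidative phosphorylation 9 rose, with a median of 0.51. Cox8a, a subunit of cytochrome oxidase, rose by 1.18 ± 0.21 (adjusted p = 0.00519), and Atp5mpl, of the ATP synthase, by 1.16 ± 0.20 (adjusted p = 0.00463), and these calls held with each library left out. Of the 13 protein-coding mitochondrial genes 4 rose, with a median of 0.63. Among them mt-Nd1, a subunit of complex I, rose by 0.89 ± 0.12 (adjusted p = 2.2e-04). The other calls, mt-Nd2, mt-Nd5 and mt-Nd6, were each lost without heterozygous replicate 1 or 3 or wild-type replicate 1 (adjusted p up to 0.208).

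Over the same libraries, the mitochondrial ribosomal RNAs fell. mt-Rnr2, the large mitochondrial ribosomal RNA, was at 210672, 236748 and 205332 normalized counts in wild type, at 21187, 26355 and 23169 in 5XFAD and at 28262, 26451 and 23909 in the heterozygous libraries. It fell by 3.05 ± 0.10 on the log2 scale (adjusted p = 1.5e-13), the smallest adjusted p of the comparison. mt-Rnr1, the small one, fell by 4.08 ± 0.57 (adjusted p = 0.0219), a call lost on leaving out any of the 6 libraries (adjusted p up to 0.0977). Together they took 1.99 to 2.32% of the reads in wild type and 0.216 to 0.243% in the heterozygous libraries. Gm23935, a 57-base feature annotated as a miRNA on chromosome 16 and chosen after its values were seen, took 2.75 to 3.34% of the reads in wild type and 0.0888 to 0.127% in the heterozygous libraries. Gm26917, also chosen after its values were seen, went the other way. It took 1.27 to 1.91% of the reads in wild type and 2.07 to 3.45% in the heterozygous libraries. Protein-coding mitochondrial genes took 0.490 to 0.722% and 0.747 to 0.994%, and ribosomal protein genes 0.484 to 0.792% and 0.903 to 1.28%. Library make-up and genotype divide the libraries in the same way, so they cannot be told apart.

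**Figure D4:**
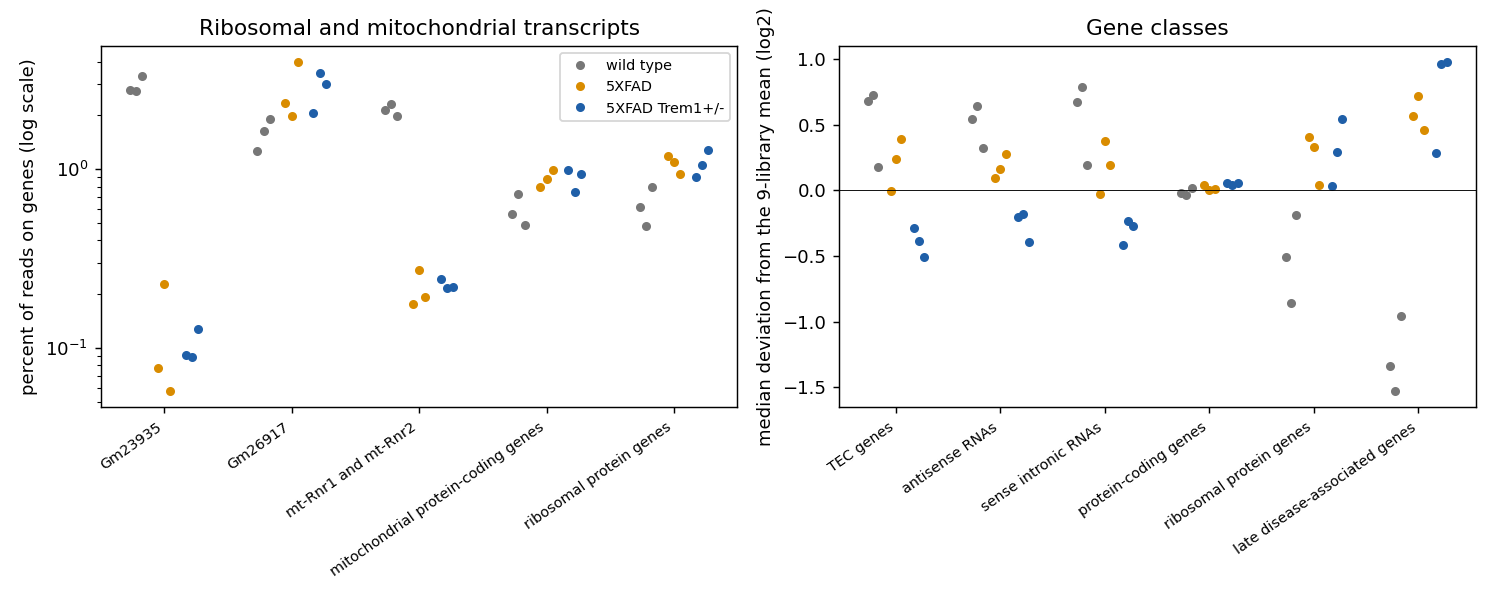
On the left, the share of reads on genes (percent, log axis) in each of the 9 libraries for Gm23935, Gm26917, the mitochondrial ribosomal RNAs, mitochondrial protein-coding genes and ribosomal protein genes. On the right, the median deviation (log2) of each gene class from the mean of the 9 libraries. The wild-type libraries have 1.99 to 2.32% of reads on mt-Rnr1 and mt-Rnr2 and the heterozygous ones 0.216 to 0.243%.

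In iron handling and oxidative defence 2 of 23 rose and 1 fell. Beside Fth1, Nqo1, a quinone reductase, rose from 1 read in the 3 wild-type libraries together to 80.5, 33.0 and 28.7 normalized counts. The ratio was 141, with a counting interval of 24.96 to 5616 that covers counting error only (adjusted p = 0.0264), and the call was lost on leaving out any library but wild-type replicate 3 (adjusted p up to 0.127). Slc40a1, the iron exporter ferroportin, was at 2802, 2955 and 3034 in wild type and at 2405, 1811 and 1272 in the heterozygous libraries. It fell by 0.73 ± 0.18 (adjusted p = 0.0413), a call lost on leaving out any library but heterozygous replicate 1 (adjusted p up to 0.223). Cell cycle genes had a median of 1.13, but 1 of 34 rose (2.94%), near the 2.04% of all tested genes. It was Mcm2, of the replicative helicase, by 1.75 ± 0.44 (adjusted p = 0.0472). That call was lost without heterozygous replicate 2 or 3 or wild-type replicate 2 or 3 (adjusted p up to 0.212). No immediate early or heat shock gene passed of 23 tested, with a median of 0.05, and the nearest were Atf3 at 1.10 ± 0.31 (adjusted p = 0.0598) and Egr1 at 1.27 ± 0.36 (adjusted p = 0.0772).

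Few markers of other brain cells passed, but their summed levels were above those of wild type for choroid plexus, astrocytes, neurons and oligodendrocytes. Of 12 tested choroid plexus and ependymal markers 1 passed, all 12 lay above 0, and the median was 2.87. Their summed level was 2491 to 7021 normalized counts in wild type, 15478 to 84551 in 5XFAD and 18950 to 106595 in the heterozygous libraries. Cldn2, a tight junction protein of choroid plexus, was at 8.80, 0 and 0 in wild type and at 276, 99.7 and 111 in the heterozygous libraries, a rise of 6.09 ± 1.23 (adjusted p = 0.0144). The Cldn2 call was lost without heterozygous replicate 3 or wild-type replicate 2 or 3 (adjusted p up to 0.128). Ttr, the transthyretin of choroid plexus, was at 5782, 1904 and 3778 against 94865, 16510 and 27746, and did not pass (adjusted p = 0.143). Replicate 1 was the highest heterozygous library for both.

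Other brain cell markers passed singly. Of 11 astrocyte markers 2 rose, with a median of 2.21 and sums of 3207 to 4075 normalized counts in wild type and 4737 to 5637 in the heterozygous libraries. Gfap, the intermediate filament of reactive astrocytes, was at 7.70, 15.2 and 92.7 against 291, 292 and 512, a rise of 3.90 ± 0.74 (adjusted p = 0.024). It was lost on leaving out any heterozygous library or wild-type replicate 2 (adjusted p up to 0.156), while Atp1b2, a pump subunit, rose by 2.90 ± 0.39 and kept its call. Of 13 neuronal markers 1 rose, with a median of 1.23 and sums of 350 to 514 against 756 to 1208. It was Thy1, with 1 read in all wild-type libraries together and 26.1, 31.3 and 56.5 normalized counts in the heterozygous ones. The ratio was 117 with a counting interval of 20.7 to 4667, and the call (adjusted p = 0.0133) was lost without heterozygous replicate 2 or 3 (adjusted p up to 0.126). Of 10 oligodendrocyte lineage markers 1 rose, Cspg4, by 5.05 ± 0.92 (adjusted p = 0.0067), with sums of 1541 to 1570 and 1853 to 2121. No endothelial or mural marker passed of 11 tested (median 1.19), and sums overlapped between the groups.

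Blood and border cell markers did not pass. None of 17 neutrophil (median 0.35), 12 monocyte (median 0.93), 7 border macrophage (median 1.88) or 6 erythrocyte markers (median -1.30) was called, nor the 3 B cell markers and the 1 T cell marker that were tested. Neutrophil sums were 14314 to 58190 normalized counts in wild type and 22485 to 33238 in the heterozygous libraries, and monocyte sums 1120 to 9668 and 3808 to 7233, overlapping in each case. Border macrophage sums were 8928 to 10817 in wild type and 7377 to 8623 in the heterozygous libraries, lower although 6 of the 7 markers had differences above 0. Most of the sum was Stab1, the marker below 0 (-0.41). Its mean over the 9 libraries was 8585, against 251.5 for Mrc1, the next highest. Every heterozygous library was above every wild-type library for 4 of the 7 and below for 1, against 12.9% and 12.6% of all tested genes. How far any of these cells contributed to the rises above was not tested.

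Several of the largest rises were of genes in no list. Lgi2, a secreted synaptic protein, was at 0, 1.17 and 3.02 normalized counts in wild type and at 262, 409 and 671 in the heterozygous libraries, a rise of 7.66 ± 0.88 (adjusted p = 1.8e-04), the largest of all calls that met the naming rule. Bmp6, a growth factor of the TGF-beta family linked to iron balance, was at 2.20, 3.52 and 0 against 282, 53.6 and 104, a rise of 5.59 ± 0.88 (adjusted p = 0.00185). Ddr1, a collagen receptor kinase, rose by 5.55 ± 0.94 (adjusted p = 0.00341). These calls held with each library left out. Zic1, a developmental transcription factor, had 2 reads in wild type, and its ratio was 109 with a counting interval of 29.8 to 906 (adjusted p = 0.00842). That call was lost without heterozygous replicate 1 or 3 (adjusted p up to 0.0739). For Bmp6, Ddr1 and Zic1, as for the choroid plexus markers, replicate 1 was the highest heterozygous library.

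Apart from mt-Rnr1, mt-Rnr2 and Gm23935 above, falls in named genes were smaller than the largest rises. The naming rule skipped 39 predicted genes among the largest falls and 0 among the largest rises. Zfp950, a zinc finger gene, was at 994, 1079 and 720 normalized counts in wild type and at 400, 475 and 385 in the heterozygous libraries and fell by 1.13 ± 0.21 (adjusted p = 0.00587). It kept its call with each library left out. Mboat1, a lysophospholipid acyltransferase, was at 568, 375 and 418 against 254, 157 and 140 and fell by 1.33 ± 0.29 (adjusted p = 0.0157). The Mboat1 call was lost without heterozygous replicate 2 or 3 or wild-type replicate 1 (adjusted p up to 0.111). Pcdhga7, a clustered protocadherin, fell by 1.91 ± 0.46 (adjusted p = 0.0278), with 156, 273 and 169 against 53.3, 74.2 and 32.5. Its call was lost on leaving out any library but heterozygous replicate 2 (adjusted p up to 0.173). Protocadherin gamma genes share their last exons, so their reads are uncertain. Other falls taken by size were AU040972, Plxna4os2, Pcnx2, Trp53cor1, Fam196b and Tmc7, by 1.12 for Tmc7 to 1.83 for AU040972, and none of these 6 kept its call with each library left out (adjusted p up to 0.227). Fam196b was lost without wild-type replicate 2, Tmc7 without heterozygous replicate 3 or wild-type replicate 2, and Plxna4os2 without heterozygous replicate 3 or wild-type replicate 1 or 2. AU040972 was lost on leaving out any library but heterozygous replicate 1, and Pcnx2 and Trp53cor1 on leaving out any of the 6. Plxna4os2 is an antisense RNA, and the strandedness of the counting is not given in the sources used here.

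The response of 5XFAD libraries to the same wild-type libraries is set beside these values, with the controls shared. The 5XFAD libraries held 9264999 (replicate 2) to 16324227 reads on genes, and 3 reads corresponded to 2.45 to 4.36 normalized counts. Whether depth bears on the counts of calls was not tested. In 5XFAD 337 genes were called (1.98%), 275 higher (1.62%) and 62 lower (0.364%), and 216 were called without 5XFAD replicate 2 and 134 without 5XFAD replicate 1. Late disease-associated genes rose for 20 of 31 members in 5XFAD and 22 of 31 in the heterozygous libraries, with medians of 1.97 and 2.07. Early members rose for 4 and 5 of 7, ribosomal proteins for 19 and 27 of 76 and lysosomal genes for 6 and 11 of 33. Cst7 rose by 5.67 ± 0.41 in 5XFAD and 5.90 ± 0.41 in the heterozygous libraries, Apoe by 3.22 ± 0.24 and 3.19 ± 0.24, and Itgax by 2.52 ± 0.26 and 2.94 ± 0.26. Of the homeostatic genes, 4 of 25 fell in 5XFAD and 0 of 25 in the heterozygous libraries. Cx3cr1 fell by 0.43 ± 0.08 (adjusted p = 0.0136) in 5XFAD and was at -0.21 ± 0.08 in the heterozygous libraries. Siglech, a lectin of microglia, fell by 0.47 ± 0.09 (adjusted p = 0.0152) in 5XFAD and was at -0.09 ± 0.09 in the heterozygous libraries.

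**Figure D5:**
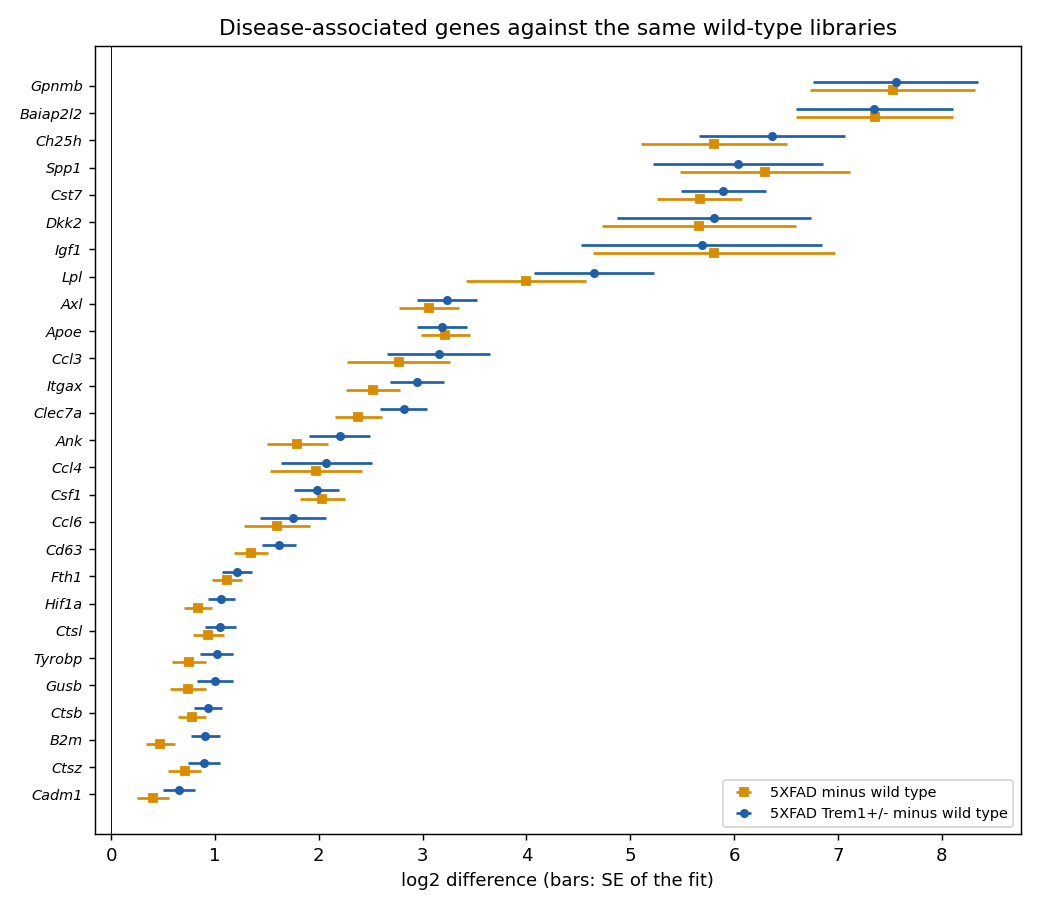
Log2 differences from the shared wild-type libraries, with bars for the SE of the fit, of the 22 late and 5 early disease-associated genes that rose in the heterozygous libraries. Orange squares are 5XFAD and blue circles 5XFAD Trem1+/-, and Gpnmb and Baiap2l2 are at the top at over 7 in each.

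The difference between the heterozygous and 5XFAD libraries was itself tested, and limma called 0 of 17025 genes. The smallest adjusted p was 0.405, 883 genes (5.19%) had an unadjusted p under 0.05, edgeR called 0 and DESeq2 12. For Cst7 the heterozygous minus 5XFAD difference was 0.23, with a 95% interval of -0.69 to 1.15, for Apoe -0.03 (-0.59 to 0.52) and for Gpnmb 0.03 (-1.67 to 1.73). Intervals of this width leave room for moderate differences in either direction. Of the 31 late members 23 had higher values in the heterozygous libraries, and the differences ran from -0.27 to 0.65. Of these, 0 had an unadjusted limma p under 0.05. Of 25 homeostatic genes 21 had higher values and 6 had such a p, and of 33 lysosomal genes 29 and 9. Of 20 TREM and DAP12 genes 7 had higher values and 0 had such a p. None of these genes was called. Siglech was at 14189, 12463 and 12135 normalized counts in 5XFAD and at 15894, 17318 and 16980 in the heterozygous libraries, a difference of 0.37 ± 0.09 with an unadjusted p of 8.5e-04 and an adjusted p of 0.693. The groups did not overlap for it, nor for 11.9% of all tested genes in this comparison, 5.24% higher and 6.61% lower.

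The genes with the smallest p between heterozygous and 5XFAD libraries were Cdc42ep1, Fam196b, Gm5846, Gm37033 and 4933423P22Rik. Cdc42ep1, an effector of the small GTPase CDC42, was at 123.2, 182 and 42.2 normalized counts in wild type, at 0 in every 5XFAD library and at 133, 45.3 and 20.1 in the heterozygous libraries (adjusted p = 0.405). Wild type and heterozygous libraries thus overlapped for it. Fam196b was at 578, 896 and 500 in wild type, 525, 654 and 653 in 5XFAD and 288, 222 and 280 in the heterozygous libraries. It was lowest in the heterozygous libraries, with a difference from 5XFAD of -1.21 ± 0.24 (adjusted p = 0.499).

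At the threshold of the main comparison, the genes just past were Akap8l, a nuclear scaffold protein, and Trp53cor1, a long noncoding RNA, both with an adjusted p of 0.0497. The Akap8l call was lost on leaving out any library but heterozygous replicate 1 (adjusted p up to 0.229). The genes just short were Sema4b, a semaphorin, at -0.84 ± 0.22 (adjusted p = 0.0501), and Idh3a (adjusted p = 0.0503).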

How the data were processed

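Total RNA from primary brain microglia was extracted with an RNeasy kit and made into libraries with a NEBNext Ultra kit, per the labels' protocols. Reads were processed with fastp, HISAT2 2.0.5, featureCounts 1.5.0-p3 and DESeq2 1.20.0 on GRCm38, per the submitters' processing notes. The annotation release, strandedness and RNA selection are not given in the sources used here. The deposited per-library columns hold a signal, counts that the authors divided by a size factor. Whole reads were recovered from the size of the smallest steps, and at least 99.9956% of values came within 0.05 read of a whole number. No duplicate libraries were seen (chi-square per degree of freedom 13.9 to 46.9 between replicates).

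Genes with a mean of at least 10 over the 9 libraries were tested with limma 3.58.1 under R 4.3.3 on log2(normalized count + 1), using the trend and robust options, a shared fit of the 3 groups and Benjamini-Hochberg adjustment over all 17025 genes. Fold changes are on that scale, which understates changes of low genes. An exact permutation test of 3 against 3 libraries cannot go below 0.1 and was not used. The recovered reads were also tested with edgeR 4.0.16 (400 genes called) and DESeq2 1.42.0 (1061 called). The script was tested on simulated data. The counting intervals of ratios and the floors cover counting error only. The 95% intervals of log2 differences come from the limma fit and rest on the spread between libraries.

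Symbols were matched to GENCODE M21 (53644 of 54532 to a single gene) for positions and types. Promoters came from RefSeq. The 26 gene lists, 12 marker lists and the comparison itself were chosen with earlier results of these data known. Lists share members, so a called gene can be counted in several of them. Genes were named by rule: Trem1, App, the 12 largest rises and falls among calls without overlap and with a mean of at least 50 in the higher group (39 predicted genes among the falls were skipped), up to 5 called members of each list, the 10 microglial markers, the 5 genes of smallest p between heterozygous and 5XFAD libraries and 2 genes on each side of the threshold. Gene list members outside this rule were named after their values were seen, and some genes that the rule takes are not reported here. Same-numbered wild-type and heterozygous libraries did not deviate together (correlations -0.0118 to 0.0116), and no block was used. Same-numbered 5XFAD and heterozygous libraries had correlations of 0.0594 to 0.203. The alternatives were other filters, pseudocounts, scaling and tools, a replicate block, and each library of the groups compared left out.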

Additional observations from a re-analysis of the deposited data

How the results depend on the processing

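The count of 473 called genes between heterozygous and wild-type libraries was within 1.5 times of itself with a filter at a mean of 50, pseudocounts of 0.5 and 5, TMM scaling, edgeR (400) and a fit of the 2 groups alone (706). It moved to 952 with no filter, 1061 by DESeq2, 848 with a replicate block, 297 at a change of at least 2-fold and 27 by limma without trend and robust. Leaving out 1 library gave 115 to 446, with 115 without heterozygous replicate 3, 164 without wild-type replicate 2 and 275 without heterozygous replicate 2, and libraries numbered 2 and 3 alone, a setting added after the data were seen, gave 265. The 337 calls in 5XFAD moved to 795 with no filter, 32 by limma without trend and robust, 206 by edgeR, 778 by DESeq2, 628 with a replicate block, 137 with libraries 2 and 3 alone and 134 to 343 with 1 library left out. The 0 calls between heterozygous and 5XFAD libraries became 29 with no filter, 12 by DESeq2, 2 with libraries 2 and 3 alone and 0 to 2 with 1 library left out. The cause of these shifts was not tested, except that fits without a library hold fewer samples. Of the wild-type and heterozygous libraries, 1 of 6 was closest to its own number. Between 5XFAD and heterozygous libraries the same-number correlations were 0.203, 0.0594 and 0.0788, each above those with other numbers. What the same-numbered libraries of these groups share is not given and was not tested. A replicate block left 0 calls between them. Of the 87 named genes called, 76 lost the call by limma without trend and robust, 12 by edgeR, 45 without heterozygous replicate 3 and 38 without wild-type replicate 2, and 0 reversed under any setting. Reversals were of uncalled genes: Trem1 (-0.19 by edgeR and by DESeq2, -0.72 to 2.27 with 1 library left out, the first without wild-type replicate 2), Prtn3 (0.63 with libraries 2 and 3 alone) and Ighm (-0.044 to 0.20 with 1 library left out, the first without wild-type replicate 1). At this depth a gene with no read in a library can lie anywhere below 2.26 to 3.52 normalized counts there.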

Other observations

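The genes that fell differed in kind from those that rose. Of the 347 genes that rose, 332 (95.7%) were protein coding, against 69 of the 126 that fell (54.8%) and 77.4% of all tested genes. The falls included 23 genes of the annotation class TEC, transcribed loci that await experimental proof, 13 antisense RNAs and 8 long intergenic RNAs. As classes, the TEC genes had a median log2 difference of -0.94, the antisense RNAs of -0.69 and the sense intronic RNAs of -0.96, against 0.08 for protein-coding genes. The same medians were -0.38, -0.33 and -0.48 for 5XFAD minus wild type, which shares the wild-type libraries, and -0.55, -0.32 and -0.42 for heterozygous minus 5XFAD. The median deviation of the TEC genes from the mean of the 9 libraries was 0.176 to 0.727 in wild type, -0.00392 to 0.392 in 5XFAD and -0.505 to -0.288 in the heterozygous libraries. Among these values each heterozygous library lay below every other library.

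Protein-coding genes that fell were also longer. Their median span from start to end was 102 kb, against 17.6 kb for those that rose and 25.1 kb for all tested, and their longest annotated transcripts had medians of 5487, 3032 and 3469 bases. These are descriptions of the called genes, with no test. The pattern moves with the group, as does the share of mitochondrial ribosomal RNA reads, and their relation was not tested.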
